A study of Mus musculus with 4 samples.

Results

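The genes described here encode the hormones that β-cells store and the enzymes that turn their precursors into active peptides: Ins1, Ins2 and Iapp for insulin and amylin, Pcsk1 and Pcsk2 for the prohormone convertases, Cpe and Pam for the trimming and amidating enzymes, and Pcsk1n and Scg5 for proteins that bind the convertases. They were taken as the rows of the deposited count table with these 9 symbols, 9 of the 23420 genes in the table. All 9 passed the filter on low counts that left 14649 genes for testing. RNA was sequenced from FACS-sorted mouse pancreatic β-cells in 2 libraries labelled Bmal1KO and 2 labelled Bmal1 heterozygous (Bmal1+/-). Both groups carried DTA (diphtheria toxin A) and had received doxycycline for 10 days to ablate β-cells, so each library holds RNA of the residual β-cells. Neither the labels nor the design text name the promoter that drives DTA, the tissue in which Bmal1 was deleted, the age of the animals or the hour of collection, and there was no group without ablation. Whether replicate libraries are from different mice is not in the labels, so p-values measure only the library-to-library spread, which may be technical in part; the KO-labelled pair differed in sex-linked RNA, with values given below.

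Insulin is made as a single chain, proinsulin, in which a connecting peptide joins the B chain to the A chain. In the secretory granule the convertases PC1/3 (from Pcsk1) and PC2 (from Pcsk2) cut after pairs of basic residues, and carboxypeptidase E (from Cpe) then removes those residues from the new ends. Amylin is released from its own precursor in the same granules by the same enzymes, and its end is amidated by the enzyme from Pam, which uses a glycine exposed by the cut. ProSAAS (from Pcsk1n) can inhibit PC1/3, and 7B2 (from Scg5) is both a chaperone and an inhibitor of PC2. Mice, unlike humans, have a pair of insulin genes.

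The cut sites show what the enzymes act on and how alike the insulin genes are. The sequences below are coding strands, 30 bases each, read from GENCODE M21 transcripts (GRCm38), with the codons of the basic pair in capitals. For the second amylin site the capitals also hold the glycine codon before the pair.
Ins1, end of the B chain (arginine-arginine): acacccaagtccCGCCGTgaagtggaggac
Ins2, end of the B chain (arginine-arginine): acacccatgtccCGCCGTgaagtggaggac
Ins1, start of the A chain (lysine-arginine): gtggcccggcagAAGCGTggcattgtggat
Ins2, start of the A chain (lysine-arginine): gtggcccagcagAAGCGTggcattgtagat
Iapp, before amylin (lysine-arginine): cctcagatggacAAACGGaagtgcaacacg
Iapp, after amylin (glycine, lysine-arginine): aatacatatGGCAAGAGGaatgcggcaggg

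The Ins1 sites lie at chr19:52264774-52264803 and chr19:52264867-52264896 on the plus strand, the Ins2 sites at chr7:142679354-142679383 and chr7:142678767-142678796 on the minus strand, and the Iapp sites at chr6:142303316-142303345 and chr6:142303436-142303465 on the plus strand; each lies within 1 coding exon. Ins1 and Ins2 differed at 1 of 30 bases around the first pair and at 2 of 30 around the second. Over the 324 coding bases that align, 300 were identical (92.6%). Of 275 windows of 50 coding bases in Ins1, 5 occurred without a mismatch in an Ins2 transcript, and of 250 windows of 75 bases none did. The sources used here do not state how reads with several matches were treated, so the split of reads between the insulin genes is uncertain to that extent.

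The libraries held 31056116 to 38020488 counts. Levels are given as CPM, counts scaled to the library's total. The targeted gene goes against its label: Arntl, the official symbol of Bmal1, had 75.9 and 67.7 CPM in KO-labelled libraries and 23.5 and 14.2 CPM in heterozygous-labelled ones (edgeR log2 fold change 1.89, adjusted p = 0.0175; 0.0724 without heterozygous replicate 2). Counts over the whole gene do not show whether a deleted part is missing, so the groups are called by their labels. The 5 β-cell markers outside these 9 genes were present in every library, with a sum of 561 and 654 CPM in KO-labelled libraries and 931 and 964 CPM in heterozygous-labelled ones (1 of 5 fell, Ucn3). By its mean over the 4 libraries the most abundant was Slc2a2, the β-cell glucose transporter gene, at 229 and 188 CPM in KO-labelled libraries and 235 and 171 CPM in heterozygous-labelled ones, where Ucn3 was above it at 275 and 298 CPM. RNA of other cells was present too. Summed markers of α-cells were at 2962 and 4739 CPM in KO-labelled libraries and 2814 and 3227 CPM in heterozygous-labelled ones (1 of 7 genes tested rose, Irx2, and 0 fell; Gcg was most abundant except in heterozygous replicate 2, where Ttr was). Those of PP cells were at 2325 and 4767 CPM in KO libraries and 1631 and 1214 CPM in heterozygous ones (0 of 2 passed, Ppy most abundant). Those of δ-cells were at 615 and 1571 CPM in KO libraries and 1046 and 1060 CPM in heterozygous ones (0 of 4, Sst). Immune markers were at 381 and 1116 CPM in KO libraries and 380 and 427 CPM in heterozygous ones (0 of 6, Cd74). Stromal markers were at 128 and 368 CPM in KO libraries and 58.8 and 16.4 CPM in heterozygous ones (2 of 5 higher, Lum and Col1a2). Col3a1, the most abundant stromal marker, did not pass in edgeR's test (adjusted p = 0.0640). Acinar markers were at 158 and 65.7 CPM in KO libraries and 49.999 and 9.78 CPM in heterozygous ones (0 of 8; Prss2 led the mean over the 4 libraries through KO replicate 1, with 54.4 CPM there and 0.115 to 7.13 CPM in the others), endothelial markers at 37.9 and 18.3 CPM in KO libraries and 14.5 and 9.98 CPM in heterozygous ones (0 of 4, Esam), and duct markers at 512 and 521 CPM in KO libraries and 697 and 736 CPM in heterozygous ones (0 of 4, Krt7). At an unadjusted p under 0.05, and in DESeq2, the lists with no call in edgeR's test had 2 and 2 higher markers for PP cells, 0 and 0 for δ-cells, 3 and 2 for immune cells, 3 and 1 for acinar cells, 2 and 2 for endothelial cells and 1 and 1 for duct cells, where 1 and 1 were also lower. By the same counts, the lists with a call had 4 and 3 higher markers for stromal cells and 3 and 3 for α-cells. For α-cells 1 and 1 were also lower, and for β-cells 2 and 2 were lower and 0 and 0 higher. Among these markers Kdr was at 0 in KO replicate 1 and heterozygous replicate 1, Amy2b at 0 in heterozygous replicate 2, and no other tested one at 0. Most of the duct sum was Krt7, with 368 and 410 CPM in KO libraries and 578 and 630 CPM in heterozygous ones (log2 fold change -0.68). The other 3 duct genes tested were above 0. Of these, Sox9 (1.75) had 1.24 to 6.43 CPM and Krt19 (0.90) 1.58 to 8.07 CPM, and Spp1 was at 0.05. KO replicate 1 differed from KO replicate 2 and from the heterozygous libraries in sex-linked RNA, with 8.68 CPM of Xist and a sum of 283 CPM over Y-linked genes, where the others had 40.1 to 73.6 CPM and 37.3 to 78.6 CPM. Pcsk2, Cpe, Pam and Scg5 are also used by other islet endocrine cells. The part of these other cells in the results below was not tested, and in such bulk libraries fewer β-cells and less RNA per β-cell cannot be told apart.

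Of the 9 genes, Pcsk1 fell in KO-labelled libraries and none rose; 8 did not pass. Over all genes tested, 1.34% fell and 1.2% rose, 2.54% in all. Calls are by the quasi-likelihood test of edgeR, adjusted by Benjamini-Hochberg over all 14649 genes at a threshold of 0.05. At an unadjusted p under 0.05, 4 of the 9 were lower and 0 higher, and DESeq2 called 3 lower and 0 higher. Over all 14649 genes DESeq2 called 560 lower and 619 higher. The share of all genes under the unadjusted threshold was not counted. Counts at that threshold, here and for the lists, are thus a description. For 5 of the 9, both KO-labelled libraries were below both heterozygous-labelled ones (Ins1, Pcsk1, Pcsk2, Pam and Pcsk1n), where 20% of all genes tested were so placed. For 0 of the 9 were they higher without overlap, where 28% of all genes were (48% in either direction). The median log2 fold change of the 9 was -0.38, and that of all genes was 0.02. The 9 genes were chosen with earlier results of these data known, so their counts beside these shares are a description.

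**Figure D1:**
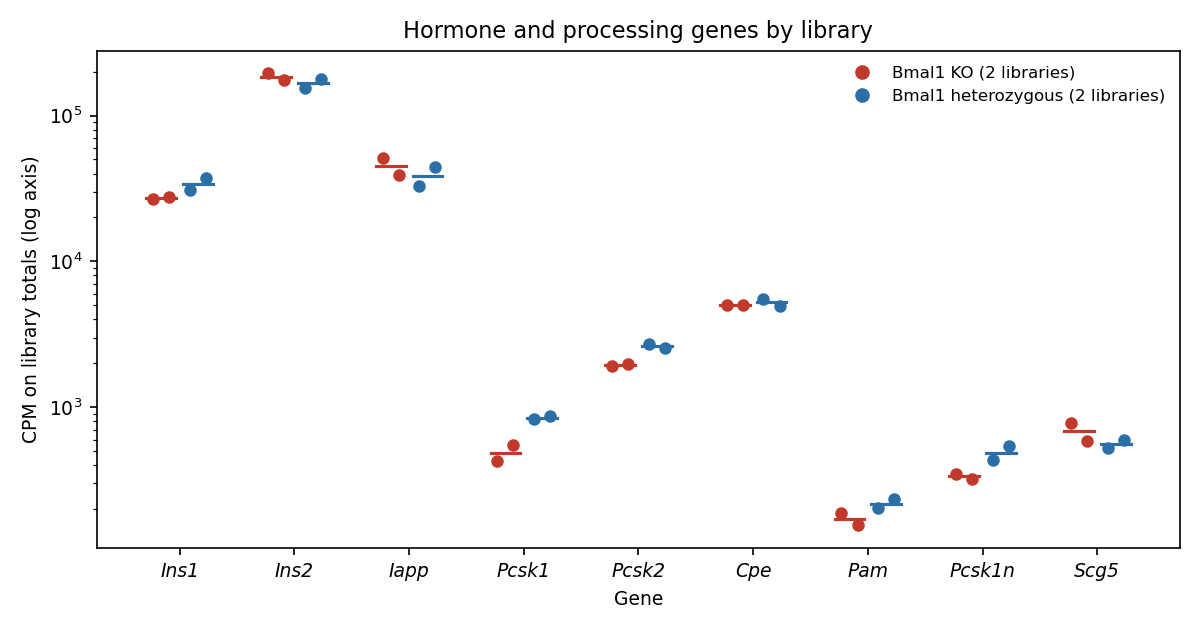
CPM on library totals (log axis) of the 9 genes in the 2 libraries labelled KO (red) and the 2 labelled heterozygous (blue); each point is a library and each short line a group mean. Pcsk1, Pcsk2, Pcsk1n, Pam and Ins1 have both KO points below both heterozygous points, and Ins2, Iapp, Cpe and Scg5 overlap.

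The hormone genes took more counts than any other gene in every library, as ranks 1 to 3, and did not pass the test. Together the 9 genes took 28.1% (95% Wilson interval 28.09% to 28.12%) and 24.9% (24.8996% to 24.93%) of the counts in KO-labelled libraries, and 22.8% (22.82% to 22.84%) and 26.9% (26.89% to 26.92%) in heterozygous-labelled ones. The intervals cover counting error only and are far narrower than the spread between libraries, and the groups overlap. Ins2 (chr7:142678659-142679726, minus strand) had 194699 and 174118 CPM in KO-labelled libraries and 154543 and 177933 CPM in heterozygous-labelled ones. KO replicate 1 was the highest and heterozygous replicate 1 the lowest, and the groups overlapped. The log2 fold change of Ins2 was 0.10 (SE 0.14, 95% interval -0.23 to 0.43, edgeR adjusted p = 0.784).

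Ins1 (chr19:52264297-52265476, plus strand), the second insulin gene, had 26753.4 and 27549.8 CPM in KO-labelled libraries against 30862.1 and 37289.4 CPM in heterozygous-labelled ones. Neither KO library reached the lower heterozygous value, and the KO pair was close together while the heterozygous pair was not. The mean was 27151.6 ± 563 CPM in KO-labelled libraries and 34075.8 ± 4544.78 CPM in heterozygous-labelled ones (SD, n = 2 each). The log2 fold change of Ins1 was -0.38 (SE 0.15, edgeR adjusted p = 0.254). Its 95% interval, which is not adjusted for the number of genes, ran from -0.73 to -0.03. Without heterozygous replicate 2 the value was -0.19.

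Iapp (chr6:142298423-142303961, plus strand), the amylin gene, had 50973.4 and 38834.1 CPM in KO-labelled libraries and 32672.7 and 44058.9 CPM in heterozygous-labelled ones. The spread within each group was larger than the difference between the groups, which overlapped. Its log2 fold change was 0.18 (SE 0.21, 95% interval -0.32 to 0.67, edgeR adjusted p = 0.744). For Iapp and Ins2 alike, the value was below 0 without KO replicate 1 (-0.09 and -0.03) and without heterozygous replicate 1 (-0.07 and -0.05).

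Both convertase genes were lower in KO-labelled libraries, and Pcsk1 passed the test. Pcsk1 (chr13:75089826-75134861, plus strand), whose product starts the cutting of proinsulin, had 429 and 548 CPM in KO-labelled libraries against 832 and 867 CPM in heterozygous-labelled ones. The heterozygous pair differed by little and both KO libraries were well below it. Pcsk1 averaged 489 ± 84.5 CPM in KO-labelled libraries and 849 ± 24.8 CPM in heterozygous-labelled ones (SD, n = 2 each), a log2 fold change of -0.85 (SE 0.16, 95% interval -1.22 to -0.48, edgeR adjusted p = 0.0449), or 0.555 times the heterozygous level. The summed β-cell markers were also lower in both KO-labelled libraries. Among them Ucn3 differed most (log2 fold change -2.04), and Slc2a2 overlapped between the groups (-0.000751). The part of these markers in the Pcsk1 result was not tested. The call was lost without heterozygous replicate 1 (log2 fold change -0.93, adjusted p = 0.0889), without heterozygous replicate 2 (-0.78, adjusted p = 0.228) and when libraries were scaled by their totals alone (-0.80, adjusted p = 0.0545).

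Pcsk2 (chr2:143546156-143816285, plus strand), whose product prefers the site before the A chain, had 1913 and 1991 CPM in KO-labelled libraries against 2726 and 2531 CPM in heterozygous-labelled ones. The groups did not overlap, and the libraries within each group were close. Pcsk2 averaged 1952 ± 55.0 CPM in KO-labelled libraries and 2629 ± 138 CPM in heterozygous-labelled ones, a log2 fold change of -0.48 (SE 0.12, 95% interval -0.76 to -0.19). It did not pass in edgeR's test (adjusted p = 0.106) and passed in DESeq2 (adjusted p = 0.00354). Pcsk2 overlaps a pair of annotated antisense genes, and without strand in the library their reads cannot be told from those of Pcsk2.

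**Figure D2:**
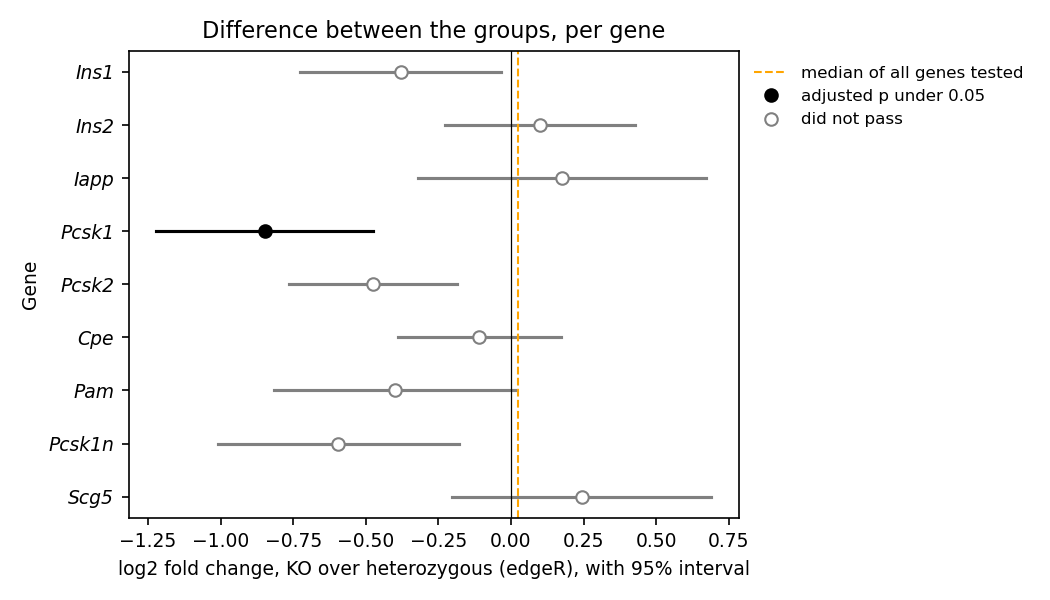
log2 fold change of each gene, libraries labelled KO over heterozygous-labelled ones, from edgeR's fit, with its 95% interval as a line (not adjusted for the number of genes); filled black marks adjusted p under 0.05 and the dashed line is the median of all genes tested. Pcsk1 at -0.85 is the one filled point, and the intervals of Ins2, Iapp, Cpe, Pam and Scg5 include 0.

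The trimming and amidating enzymes did not pass. Cpe (chr8:64592542-64693054, minus strand), the most abundant of the enzyme genes, had 4986 and 5040.5 CPM in KO-labelled libraries and 5505 and 4981 CPM in heterozygous-labelled ones. The lowest of these 4 values was that of heterozygous replicate 2, so the groups overlapped. Its log2 fold change was -0.11 (SE 0.12, edgeR adjusted p = 0.713), and the 95% interval of -0.39 to 0.17 holds no 2-fold change in either direction. Pam (chr1:97821095-98095632, minus strand), the amidating enzyme gene, had 187 and 155 CPM in KO-labelled libraries against 202 and 234 CPM in heterozygous-labelled ones. The groups did not overlap, but KO replicate 1 and heterozygous replicate 1 were close. The log2 fold change of Pam was -0.40 (SE 0.18, 95% interval -0.82 to 0.01, edgeR adjusted p = 0.312). Leaving out KO replicate 2 gave -0.26 for Pam, and leaving out heterozygous replicate 2 gave -0.25.

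The genes of the convertase-binding proteins were placed in opposite directions, and neither passed. Pcsk1n (chrX:7919822-7924410, plus strand), which encodes the PC1/3 inhibitor proSAAS, had 347 and 323 CPM in KO-labelled libraries against 433 and 544 CPM in heterozygous-labelled ones. Both KO libraries lay below both heterozygous ones. The log2 fold change of Pcsk1n was -0.59 (SE 0.18, 95% interval -1.01 to -0.18, edgeR adjusted p = 0.152; DESeq2 adjusted p = 0.0223), and -0.38 without heterozygous replicate 2. Its last exon overlaps Eras, a gene on the other strand with 11 and 5 counts in KO-labelled libraries and 0 and 0 in heterozygous-labelled ones, where Pcsk1n had 10041 counts or more in every library. Scg5 (chr2:113776362-113829121, minus strand), which encodes the PC2 chaperone 7B2, had 784 and 588 CPM in KO-labelled libraries and 529 and 593 CPM in heterozygous-labelled ones. KO replicate 1 stood above the other 3 libraries, which lay within a narrow range. The log2 fold change of Scg5 was 0.24 (SE 0.19, 95% interval -0.20 to 0.69, edgeR adjusted p = 0.589), and -0.03 without KO replicate 1.

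Levels of different genes were compared per kilobase of the principal GENCODE transcript, as RPKM. Ins2 was first, at 385792 ± 30445.8 RPKM in KO-labelled libraries and 347778 ± 34601.3 RPKM in heterozygous-labelled ones. Iapp followed, at 53520.5 ± 10231 RPKM in KO and 45728 ± 9596.24 RPKM in heterozygous libraries, then Ins1, at 25566.5 ± 530 RPKM in KO and 32086.4 ± 4279.46 RPKM in heterozygous libraries (SD, n = 2 each, here and below). Iapp stood above Ins1 in each of the 4 libraries. The annotated Ins1 transcript is 1062 bases long and that of Ins2 478, while their coding parts are 324 and 330 bases. On coding length the order of these 3 was the same, with Ins1 at 83801 RPKM in KO-labelled libraries and 105172 RPKM in heterozygous-labelled ones. Cpe came next, at 2368 ± 18.2 RPKM in KO-labelled libraries and 2476 ± 175 RPKM in heterozygous-labelled ones. On transcript length the order of Scg5 and Pcsk2 differed between the groups. Scg5 had 649 and 486 RPKM and Pcsk2 405 and 422 RPKM in KO-labelled libraries. In heterozygous-labelled ones Scg5 had 438 and 491 RPKM and Pcsk2 577 and 536 RPKM. On coding length Scg5 was above Pcsk2 in KO replicate 1 alone. The coding-length means of Scg5 and Pcsk2 were 1079 and 1021 RPKM in KO-labelled libraries and 882 and 1376 RPKM in heterozygous-labelled ones. Pcsk1n (153 ± 7.70 RPKM in KO and 223 ± 35.6 RPKM in heterozygous libraries), Pcsk1 (96.9 ± 16.8 RPKM in KO and 169 ± 4.92 RPKM in heterozygous libraries) and Pam (41.7 ± 5.47 RPKM in KO and 53.2 ± 5.55 RPKM in heterozygous libraries) were last, in that order of means in both groups.

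Ratios of counts within a library do not depend on how libraries are scaled. With 2 libraries against 2, an exact 2-sided permutation test cannot give a p below 0.333, so the 7 ratios computed are given as a description. For 4 of them the groups did not overlap, where 48% of all genes tested did not overlap in CPM. Several ratios share a gene, so the 7 are not separate observations. Ins1 to Ins2 was 0.137 and 0.158 in KO-labelled libraries against 0.1997 and 0.2096 in heterozygous-labelled ones, 0.721 times as high by geometric means. Both KO libraries held less Ins1 per Ins2 than either heterozygous library. Pcsk1 to Pcsk2 was 0.224 and 0.275 in KO-labelled libraries against 0.305 and 0.342 in heterozygous-labelled ones, or 0.769 times as high. Each KO library held less Pcsk1 per Pcsk2 than either heterozygous library. Per 1000 counts of Ins1 plus Ins2, the convertases together had 10.6 and 12.6 counts in KO-labelled libraries and 19.2 and 15.8 in heterozygous-labelled ones, a ratio of 0.663 between the groups. Scg5 to Pcsk2, the PC2 chaperone over its enzyme, was 0.4100 and 0.295 in KO-labelled libraries against 0.194 and 0.234 in heterozygous-labelled ones, or 1.63 times as high. It was the one ratio of the 7 in which both KO libraries were above both heterozygous ones. The groups overlapped for the other 3 ratios. Iapp to Ins1 plus Ins2 was 0.2302 and 0.193 in KO libraries and 0.176 and 0.205 in heterozygous ones. Pcsk1n to Pcsk1 was 0.8096 and 0.5896 in KO libraries and 0.521 and 0.627 in heterozygous ones. Pam to Cpe was 0.0374 and 0.0308 in KO libraries and 0.0367 and 0.0470 in heterozygous ones. With each library left out in turn, the sign of each of these 7 ratios held, the log2 difference of Ins1 to Ins2 between -0.57 and -0.37 and that of Scg5 to Pcsk2 between 0.47 and 0.94.

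**Figure D3:**
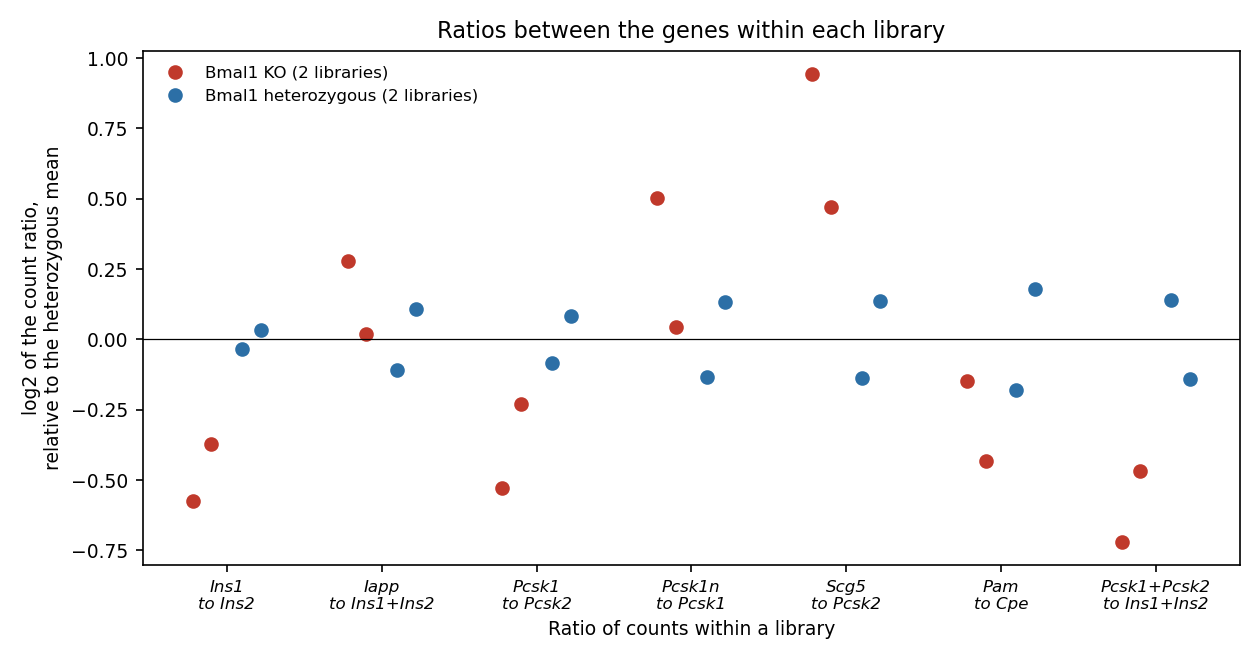
log2 of each count ratio within a library, relative to the geometric mean of the 2 libraries labelled heterozygous; red points are KO-labelled libraries and blue points heterozygous-labelled ones. Ins1 to Ins2, Pcsk1 to Pcsk2 and convertases to insulins are lower in both KO libraries, Scg5 to Pcsk2 is higher in both, and the other 3 ratios overlap.

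Genes that act around these 9 were taken from 5 lists, of which 2 genes rose and 6 fell in KO-labelled libraries. Over all genes tested, 1.2% rose and 1.34% fell. The other proprotein convertases did not pass: 0 of 6 tested in edgeR's test, 0 in DESeq2 and 1 at an unadjusted p under 0.05, with a median log2 fold change of 0.19. The smallest p in this list was that of Mbtps1, the site-1 protease of the Golgi, with 153 and 167 CPM in KO-labelled libraries against 203 and 187 CPM in heterozygous-labelled ones (log2 fold change -0.33, adjusted p = 0.273). Furin, the convertase of the constitutive secretory pathway, had 46.2 and 35.8 CPM in KO-labelled libraries and 36.9 and 30.4 CPM in heterozygous-labelled ones, and the groups overlapped (0.24, adjusted p = 0.617).

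Among 14 other enzymes that trim or degrade peptides, Cpm and Cpd rose, 12 did not pass and none fell. At an unadjusted p under 0.05, 3 were higher and 3 lower, and DESeq2 called 3 higher and 1 lower. The median of the list was 0.26. Cpd, a carboxypeptidase of the trans-Golgi network in the same enzyme family as Cpe, had 137 and 129 CPM in KO-labelled libraries against 59.2 and 66.2 CPM in heterozygous-labelled ones (log2 fold change 1.04, SE 0.16, edgeR adjusted p = 0.0247). Cpm, a carboxypeptidase of the cell surface, had 44.5 and 43.8 CPM in KO-labelled libraries against 14.5 and 10.8 CPM in heterozygous-labelled ones (1.76, SE 0.21, adjusted p = 0.0140). Both KO-labelled libraries were above both heterozygous-labelled ones for each gene. The Cpd call was lost without heterozygous replicate 1 (adjusted p = 0.133) and both calls without heterozygous replicate 2 (0.105 for Cpd and 0.0855 for Cpm).

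Of 18 tested precursors that convertases also cut, Pdyn, Ucn3, Chga and Vgf fell, 14 did not pass and none rose. At an unadjusted p under 0.05, 9 were lower and 3 higher, and DESeq2 called 8 lower and 3 higher. The list's median was -0.27. Pdyn, the dynorphin precursor gene, had 34.5 and 22.8 CPM in KO-labelled libraries against 138 and 216 CPM in heterozygous-labelled ones (log2 fold change -2.68, SE 0.31, edgeR adjusted p = 0.0140). Chga, the chromogranin A gene, had 9955 and 10071 CPM in KO-labelled libraries against 18497 and 20650 CPM in heterozygous-labelled ones (-1.02, SE 0.13, adjusted p = 0.0175). Ucn3 (-2.04, adjusted p = 0.0160) and Vgf (-1.77, adjusted p = 0.0175) encode a hormone of mature β-cells and a granule protein. Without heterozygous replicate 2 only Pdyn of these 4 passed, and by limma-trend on the deposited scaled values Chga did not pass (adjusted p = 0.158).

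All 13 genes of proinsulin folding and granule zinc had a log2 fold change below 0, as 47.6% of all genes tested did, with a median of -0.54; 2 fell and 11 did not pass (10 lower at an unadjusted p under 0.05 and 5 in DESeq2). Slc30a8, the transporter that loads granules with the zinc on which insulin crystallises, had 299 and 346 CPM in KO-labelled libraries against 608 and 573 CPM in heterozygous-labelled ones (log2 fold change -0.92, SE 0.14, edgeR adjusted p = 0.0230). Pdia6, a disulfide isomerase of the ER, had 896 and 1038 CPM in KO-labelled libraries against 1614 and 1888 CPM in heterozygous-labelled ones (-0.91, SE 0.16, adjusted p = 0.0361). Neither passed without heterozygous replicate 2 (0.127 for Slc30a8 and 0.189 for Pdia6), and Slc30a8 did not without heterozygous replicate 1 (0.0773). For 11 of the 13 the KO libraries lay below the heterozygous ones without overlap, where 20% of all genes tested were so placed. The list was chosen with earlier results of these data known, and its genes were read in the same 4 libraries. Its counts are therefore a description and not a test of the list.

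None of 15 transcription factors of the insulin genes passed in edgeR's test (median -0.23). At an unadjusted p under 0.05, 2 were higher and 1 lower, and DESeq2 called 2 higher and 1 lower. Pdx1, which binds the insulin promoters, had 116 and 140.2 CPM in KO-labelled libraries against 175 and 180.03 CPM in heterozygous-labelled ones (log2 fold change -0.52, edgeR adjusted p = 0.145). α-cell, PP-cell and immune sums were higher in KO replicate 2 than in the other libraries, as given above.

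**Figure D4:**
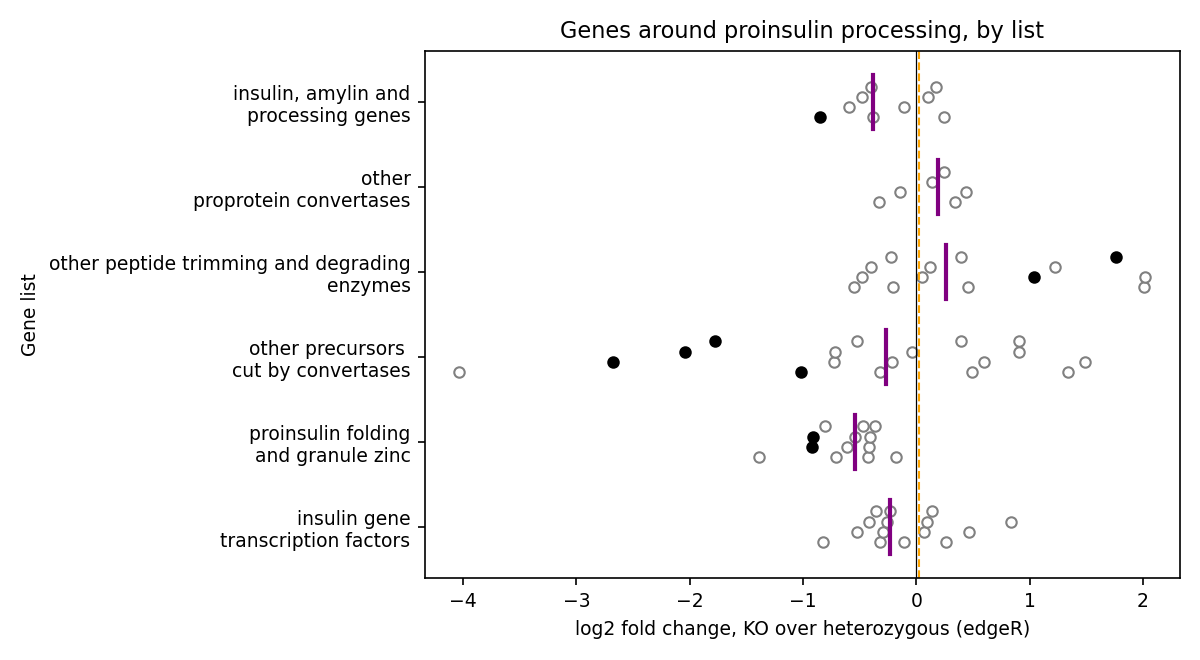
log2 fold change, libraries labelled KO over heterozygous-labelled ones, of the 9 genes and of 5 lists around them; each point is a gene, filled where its adjusted p is under 0.05, purple bars are list medians and the dashed line is the median of all genes tested. All 13 points of the folding and zinc list lie below 0, and both filled points among the trimming enzymes lie above it.

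The promoter windows of Pcsk1 and Ins1, the called gene and the insulin gene whose groups did not overlap, are shown for the motifs they hold. RefSeq windows (GRCm38.p6) from 250 bases before to 50 after the annotated start were matched for 7 of the 9 genes, in 8 windows. Ins2 and Cpe were not matched. Whether transcription starts at the annotated base in these cells was not tested. Both strands were searched. Capitals mark TGACGTCA, the full cAMP response element, and CANNTG, the general E-box. The windows are chr13:75089607-75089906 and chr19:52264047-52264346, both plus strand.
Pcsk1 promoter: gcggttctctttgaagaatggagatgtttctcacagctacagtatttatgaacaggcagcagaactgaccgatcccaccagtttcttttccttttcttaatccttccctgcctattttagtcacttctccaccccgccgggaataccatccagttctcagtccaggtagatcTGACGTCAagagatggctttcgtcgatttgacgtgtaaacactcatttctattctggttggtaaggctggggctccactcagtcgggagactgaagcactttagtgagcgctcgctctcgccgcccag
Ins1 promoter: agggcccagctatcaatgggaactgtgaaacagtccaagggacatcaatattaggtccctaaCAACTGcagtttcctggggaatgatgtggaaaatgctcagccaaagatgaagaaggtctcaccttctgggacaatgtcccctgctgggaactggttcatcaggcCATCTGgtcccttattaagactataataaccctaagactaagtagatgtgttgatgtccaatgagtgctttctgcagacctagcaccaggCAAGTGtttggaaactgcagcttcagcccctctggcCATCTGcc

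Pcsk1 held 1 TGACGTCA, a motif present in 1.79% of 32851 windows and in none of the windows of the other 6 genes. It held no CANNTG, where Ins1 held 4, Iapp 3, Scg5 3 and Pcsk2, Pcsk1n and 1 of the 2 Pam windows 1 each; 72.3% of all windows hold at least 1. CACGTG, the E-box form that BMAL1 and CLOCK bind best and a special case of CANNTG, was in 0 of the 8 windows and in 7.15% of all windows. A match is a description of these letters in this window only.

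Genes near Pcsk1 and Ins1 were sought among 1633 tested genes with a mean of at least 100 CPM, with Gm and Rik gene models left out. Profiles were log2 CPM over the 4 libraries, centred on the gene's mean. Nearest to Pcsk1 were Ubr4, a ubiquitin ligase gene (Euclidean distance 0.155), Slc30a8 (0.159) and Pdia6 (0.162). Nearest to Ins1 were Nkx6-1, a transcription factor gene of β-cells (0.0422), Smpd1, the acid sphingomyelinase gene (0.0751), and Cltb, a clathrin light chain gene (0.0804). With 4 libraries such nearness is a description only. Nkx6-1 had 118 and 125 CPM in KO-labelled libraries against 136 and 163 CPM in heterozygous-labelled ones, and like Ins1 it did not pass (log2 fold change -0.35, edgeR adjusted p = 0.346).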

How the data were processed

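RNA of sorted mouse β-cells was measured in 4 libraries, made, per the labels' protocols, with RNeasy Plus Micro and the unstranded SMART-Seq v4 chemistry. STAR, edgeR and mm10 are named in the submitters' processing notes. Versions, counting tool, annotation and read length: not given in the sources used here. Per gene symbol, the authors deposited whole-number read counts, which were used for the main test. They also deposited a scaled signal, equal to the counts divided by 1 constant per library. With the constants taken from the counts, 100% of its values came out whole at a tolerance of 0.01. These recovered reads repeat the counts, so a count test on them had to call the same 372 genes. Totals were 31056116 to 38020488 counts, and reads carry no molecular identifiers.

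Low-count genes were removed by filterByExpr (at least 10 counts, 15 in total). TMM factors ran from 0.9502 to 1.03. The 2-sided test was edgeR 4.0.16 in R 4.3.3 (glmQLFit, glmQLFTest), fitted to the 4 libraries by group alone, with Benjamini-Hochberg adjustment at 0.05. Printed CPM use library totals without these factors, so a ratio of printed means can differ slightly from the fitted fold change. DESeq2 1.42.0 and limma 3.58.1 were alternatives; the pseudocount on the scaled values was 1. The procedure was tested on simulated data. Replicates of a group differed beyond sampling noise (chi-square per degree of freedom 66.7 and 44.8). The members and lists were chosen with earlier results of these data known. Named genes are the 9 members, Arntl, for each list up to 4 called genes by p, otherwise its 2 lowest p-values, the most abundant marker of each cell type, and 3 nearest genes for Pcsk1 and Ins1; further names were chosen after their values were seen. A gene that this rule names is not reported here. Sequences and lengths are from GENCODE M21 (GRCm38, the build named mm10) and RefSeq.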

Additional observations from a re-analysis of the deposited data

How the results depend on the processing

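Across the 15 alternatives, Pcsk1, Pcsk2, Pcsk1n, Ins1, Pam and Cpe kept a log2 fold change below 0. Ins2 and Iapp changed sign in 2 alternatives each and Scg5 in 1, with no call; without KO replicate 1 all 9 were below 0. Pcsk1 passed in 12 of 15 (-1.02 to -0.73; adjusted p 1.99e-05 to 0.228), Pcsk2 in 2 (adjusted p = 0.0486 with no filter on low counts, DESeq2 adjusted p = 0.00354) and Pcsk1n in 1 (DESeq2). Of the 9, 0 fell with library totals only, 2 with no filter and 3 with DESeq2, against 1 in edgeR's test as reported; the cause was not tested. Over all genes, where 176 rose and 196 fell, 430 rose and 378 fell with no filter, 619 and 560 with DESeq2, 266 rose at a mean of at least 5 CPM and 313 with the replicate block. Of the genes listed around the 9, where 2 rose and 6 fell, 5 and 12 passed with no filter, 8 and 15 with DESeq2, and 11 fell with the replicate block. Leaving out each library in turn gave 17 to 404 genes that rose and 8 to 422 that fell, 0 to 1 of the 9 that fell, and 0 to 6 listed genes that rose and 1 to 13 that fell. The lowest counts were without heterozygous replicate 2. Whether the replicate numbers pair the libraries is not in the labels. Same-numbered libraries deviated with a correlation of -0.02 across genes, which cannot settle this because it rests on 1 difference per group. With the replicate block Pcsk1 was at -0.85 (edgeR adjusted p = 0.0182). Recovered whole reads, an alternative chosen after seeing the data, repeat the deposited counts. They could change no call and are no separate check among the 15. With 2 libraries a group, precision is limited by the spread between libraries, not by depth.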

Other observations

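Some further genes of the same lists are given here, and none of them passed. They were chosen after their values were seen. Ero1lb had the lowest log2 fold change of the folding and zinc list, and the others did not have the largest of theirs. Ero1lb, a β-cell oxidase that forms disulfide bonds in proinsulin, had 776 and 1627 CPM in KO-labelled libraries against 2915 and 3117 CPM in heterozygous-labelled ones (log2 fold change -1.38, edgeR adjusted p = 0.0711). Its KO libraries differed from each other more than its heterozygous ones did. Chgb, the chromogranin B gene, had 5849.8 and 4166 CPM in KO-labelled libraries against 8082 and 7946 CPM in heterozygous-labelled ones (-0.72, edgeR adjusted p = 0.106). Ece1, an endothelin-converting protease that also degrades peptides, had 399.6 and 429.6 CPM in KO-labelled libraries against 547 and 515 CPM in heterozygous-labelled ones (-0.40, edgeR adjusted p = 0.178). Of the hormones of other islet cells, Ppy had 1975 and 4133 CPM in KO-labelled libraries against 1344 and 994 CPM in heterozygous-labelled ones (1.34, edgeR adjusted p = 0.0850), and Gcg had 1631 and 3406 CPM in KO libraries against 1365 and 1219 CPM in heterozygous ones (0.91, edgeR adjusted p = 0.183). Sst had 540 and 1447 CPM in KO libraries and 965 and 991 CPM in heterozygous ones, and the groups overlapped (-0.04, edgeR adjusted p = 0.929).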
